A study of Mus musculus with 22 samples.

Results

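The response of the TRα1+m heart to T3 was read from 10 of the 22 arrays of the series, 5 from TRα1+m mice given T3 and 5 from TRα1+m mice given control water. The arrays were chosen by their sample titles, and the response was described over 21092 of 22206 gene probe sets, which averaged above 4 log2 units across the 22 arrays, with control probe sets left out. TRα1+m mice are heterozygous for the R384C change in TRα1, the thyroid hormone receptor encoded by Thra, and keep 1 wild-type allele, so every cell that expresses the gene can make both receptors. T3-treated TRα1+m mice drank 0.5 mg/L T3 in water with 0.01% bovine serum albumin for 12 days, and TRα1+m controls drank water with the same albumin alone. The wild-type hearts set beside them came from 6 mice on T3 and 6 on control water. All mice were males of the C57/BL6NCr strain, 3 to 6 months old and housed singly at 30 °C, near thermoneutrality for mice. RNA of the whole heart was hybridised to Clariom S Mouse arrays, 1 array per sample, so atria, ventricles and the conduction system were not measured apart.

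T3 acts through nuclear receptors that bind DNA together with retinoid X receptors, recruit corepressors when empty and exchange them for coactivators when T3 binds. TRα1 is the main isoform of cardiomyocytes, and genes of fast myosin, calcium reuptake and pacemaker current are known to be raised by the hormone in rodent hearts, while β-myosin heavy chain is lowered. R384C lowers the affinity of TRα1 for T3, and with little hormone bound the mutant protein acts as a repressor. An excess of T3 can still fill it.

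Values are log2 intensities as deposited, so a difference of 1 is a doubling. The median gene probe set lay between 7.02 and 7.08 on the T3 arrays and between 6.99 and 7.09 on the water arrays. The median negative-control probe set averaged 6.54 on T3 and 6.70 on water. The median of the 23 background probe sets was lower, 6.18 on T3 and 5.99 on water, and differed in the other direction. The negative-control level served as a working cut-off and is not a detection limit. Genes at or below it are described in the text as at or below background. For such genes the change is given as a lower bound, the mean of the brighter group set against the higher of the control level and the gene's own value on each array of the dimmer group. The first principal component of the 10 arrays held 38.3% of the variance and separated all 5 T3 arrays (29.9 to 35.7) from all 5 water arrays (-37.6 to -20.1). The second component (15.8%) spread the water arrays, with arrays 2 and 4 at -40.1 and -23.8, array 5 at 38.4 and arrays 1 and 3 at 1.88 and 14.3. The 10 cardiomyocyte markers of the labelled tissue averaged 18.04 to 18.09 on T3 and 18.03 to 18.12 on water. The highest value in the table was 19.93, and whether changes are compressed near it was not tested.

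Single arrays also differed in tissue-specific genes, which were chosen after their values were seen. Ucp1, the uncoupling protein of brown fat, measured 6.85, 5.25, 7.21, 6.68 and 7.89 on T3 arrays 1 to 5, against 6.95, 5.14, 4.42, 12.10 and 4.51 on water arrays 1 to 5, and the 10 adipocyte markers averaged 8.22 to 8.83 on the T3 arrays, against 7.73 to 8.89 on water arrays 1, 2, 3 and 5 and 10.57 on water array 4. Bmp10, a growth factor made by atrial cardiomyocytes, measured 13.56, 14.48, 14.42, 7.12 and 13.91 on T3 arrays 1 to 5, against 12.74, 15.13, 4.12, 6.37 and 13.68 on water arrays 1 to 5, so T3 array 4 and water arrays 3 and 4 were low. Neither gene was called (0.15 ± 1.07, adjusted p = 0.96 for Ucp1 and 2.29 ± 1.53, adjusted p = 0.39 for Bmp10, limma). None of the 10 adipocyte markers was called, though 1 was called higher without water arrays 2 and 4, and the 14 atrial markers averaged 11.84 to 12.83 on T3 and 11.63 to 12.74 on water. Whether the samples differed in their share of atrial tissue was not tested. The sign of the Ucp1 difference turned when single arrays were left out, from -0.40 without water array 3 to 1.52 without water array 4.

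**Figure D1:**
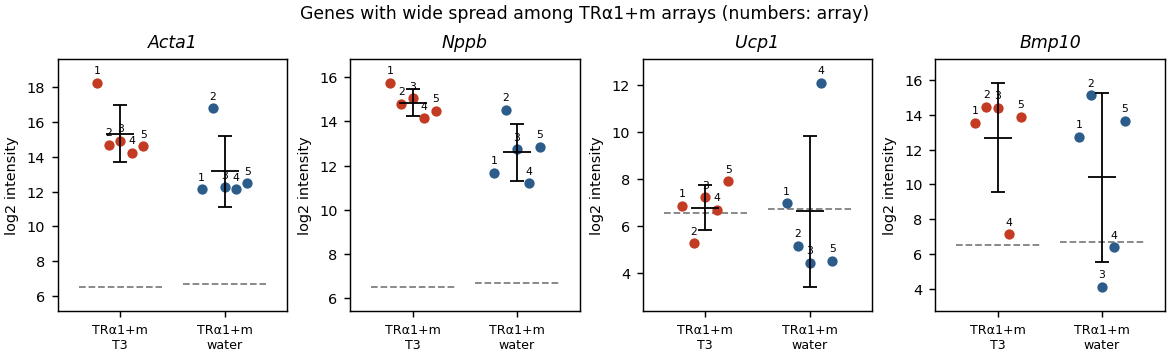
Log2 intensity of Acta1, Nppb, Ucp1 and Bmp10 on each TRα1+m array, T3 left and water right, with array numbers beside the points and the group mean and SD drawn as line and bar. Acta1 stood out on T3 array 1 (18.24) and water array 2 (16.78), Ucp1 on water array 4 (12.10) and Bmp10 on T3 array 4 (7.12), each away from the rest of its group.

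T3 changed 3198 of 21092 probe sets in TRα1+m hearts (15.2%), of which 1738 were higher on T3 (8.24%) and 1460 lower (6.92%), at an adjusted p below 0.05 (limma, Benjamini-Hochberg over all probe sets). Counts of called members in every gene list below are to be read beside these shares. All T3 arrays lay above all water arrays for 6.85% of probe sets and below them for 6.25%, together 13.1%. The median difference of all probe sets was -0.0185, and the called ones had a median size of 0.697. Rises were more numerous than falls among the stronger changes, since 551 called rises but 225 called falls reached a log2 difference of 1, and 79 rises but 29 falls reached 2. The split depended on the scale: with each array centred on its negative controls, the median difference was 0.148 and 3185 probe sets were called higher and 774 lower. Where cells of a type can differ in number, fewer cells and less RNA per cell cannot be told apart in whole-heart RNA.

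Of the receptor genes themselves Thra fell and Thrb was not called. Thra, the gene that carries the mutation, measured 11.19, 10.82, 11.34, 11.31 and 11.20 on T3 arrays 1 to 5, against 12.34, 12.23, 12.22, 12.47 and 12.13 on water arrays 1 to 5. No T3 array reached the lowest water array, and Thra fell by 1.11 ± 0.14 (adjusted p = 2.8e-06). Rxrg, a retinoid X receptor that partners thyroid hormone receptors, fell by 1.29 ± 0.15 (adjusted p = 6.6e-07), and all its T3 arrays were below its water arrays. Of 18 receptors and cofactors measured, 4 fell (Rxrg, Thra, Rxra and the coactivator Ppargc1a) and none rose, with a list median of -0.15 beside -0.0185 for all probe sets. Thrb, the second receptor gene, had a difference of -0.13 ± 0.17, adjusted p = 0.72, which changed sign on negative-control centring (0.03). The probe set cannot tell the mutant from the wild-type Thra transcript, and Nr1d1, which overlaps the 3′ end of Thra on the other strand, also fell.

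Hcn2, which encodes a pacemaker channel opened by hyperpolarization and cyclic AMP, went up in TRα1+m hearts more than any other gene of its list. It measured 9.10, 10.40, 10.34, 10.02 and 10.34 on T3 arrays 1 to 5, against 5.57, 5.10, 5.66, 5.82 and 5.22 on water arrays 1 to 5, and the groups were far apart, with T3 array 1 the lowest of its group and every water array below background. The fitted difference was 4.57 ± 0.24, adjusted p = 2.8e-12, and since the gene was dim on water the rise was at least 10.1-fold. Hcn4, the main channel of the sinoatrial node, measured 7.57, 7.65, 8.86, 8.0 and 8.10 on T3 arrays 1 to 5, against 6.77, 6.11, 6.85, 6.49 and 6.32 on water arrays 1 to 5, with no overlap and T3 array 3 the highest. It rose by 1.53 ± 0.20 (adjusted p = 6.7e-06), at least 2.43-fold, its water mean also being below background. Only promoters holding the motif searched for could be printed, and the promoter of Hcn2 is printed because the gene led the pacemaker genes. It is the RefSeq reference sequence from 250 bases before to 50 bases after the transcription start (GRCm38.p6, chr10:79716384-79716683, + strand), written 5′ to 3′, with the matches to AGGTCA, the hexamer that thyroid hormone receptors bind in repeats, in capitals. Both matches read on the opposite strand, begin at -249 and -168 counted from the start site and do not overlap.
Hcn2: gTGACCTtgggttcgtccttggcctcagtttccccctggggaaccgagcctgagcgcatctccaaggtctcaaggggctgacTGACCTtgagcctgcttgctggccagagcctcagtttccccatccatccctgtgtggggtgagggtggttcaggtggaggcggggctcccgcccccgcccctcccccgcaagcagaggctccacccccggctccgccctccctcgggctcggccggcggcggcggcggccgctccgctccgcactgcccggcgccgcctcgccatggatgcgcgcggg
The hexamer, searched on both strands, was found in the promoters of 3 of 13 T3-induced genes that have one in the table (23.1%), 1 of 7 T3-repressed genes (14.3%) and 2400 of 14890 measured genes (16.1%), so a match only describes these letters.

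Of 16 measured genes that T3 induces in rodent tissues 7 rose and 2 fell, with a median of 0.50, and 1 fell instead of 2 when any single one of T3 arrays 1, 4 and 5 or water arrays 1, 4 and 5 was left out, or in a fit to the 10 arrays alone. Bcl3, a nuclear IκB protein, rose at least 1.85-fold (2.23 ± 0.20). Atp1b1, a sodium pump subunit chosen after its values were seen, rose by 0.81 ± 0.12 (adjusted p = 1.6e-05). Ppargc1a, a coactivator of mitochondrial genes, fell by 0.91 ± 0.13 (adjusted p = 1.6e-05) instead. Ryr2, the calcium release channel, and Atp2a2, the calcium pump of the sarcoplasmic reticulum, were not called (0.25 ± 0.10, adjusted p = 0.11, and 0.07 ± 0.08, adjusted p = 0.68). Atp2a2 averaged 19.09 ± 0.11 on T3 and 19.02 ± 0.07 on water, near the highest value in the table. Ryr2 was called higher on negative-control centring (0.41, adjusted p = 0.0063), with trended variance (adjusted p = 0.026) and after quantile normalization (adjusted p = 0.034). Of 10 genes that T3 represses in the heart 7 fell and none rose, with a median of -1.09.

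Of the named genes measured above background in both groups, the largest fall was that of Myh7, the slow β-myosin heavy chain. Myh7 measured 14.32, 14.52, 13.52, 13.98 and 14.20 on T3 arrays 1 to 5, against 18.39, 19.06, 18.55, 18.08 and 18.64 on water arrays 1 to 5. The groups were separated by more than 3 log2 units, and Myh7 fell by 4.43 ± 0.28 (adjusted p = 4.9e-11), 21.6-fold lower on T3. Myh6, the fast α-myosin heavy chain, measured 18.60, 18.65, 18.73, 18.68 and 18.76 on T3 arrays 1 to 5, against 18.28, 17.62, 18.24, 18.58 and 18.27 on water arrays 1 to 5. Water array 2 was the lowest, the groups did not overlap, and Myh6 rose by 0.48 ± 0.12 (adjusted p = 0.007), a rise that was not called after quantile normalization (0.39, adjusted p = 0.086) or in a fit to the 10 arrays alone (adjusted p = 0.061). Mhrt, a long noncoding RNA transcribed from the myosin heavy chain locus on the strand opposite to Myh7 and chosen after its values were seen, measured 14.11, 14.06, 13.80, 14.47 and 14.52 on T3 arrays 1 to 5, against 12.68, 11.87, 12.62, 12.87 and 12.88 on water arrays 1 to 5. All T3 arrays were above all water arrays, water array 2 was the lowest, and Mhrt rose by 1.61 ± 0.17 (adjusted p = 3e-07).

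**Figure D2:**
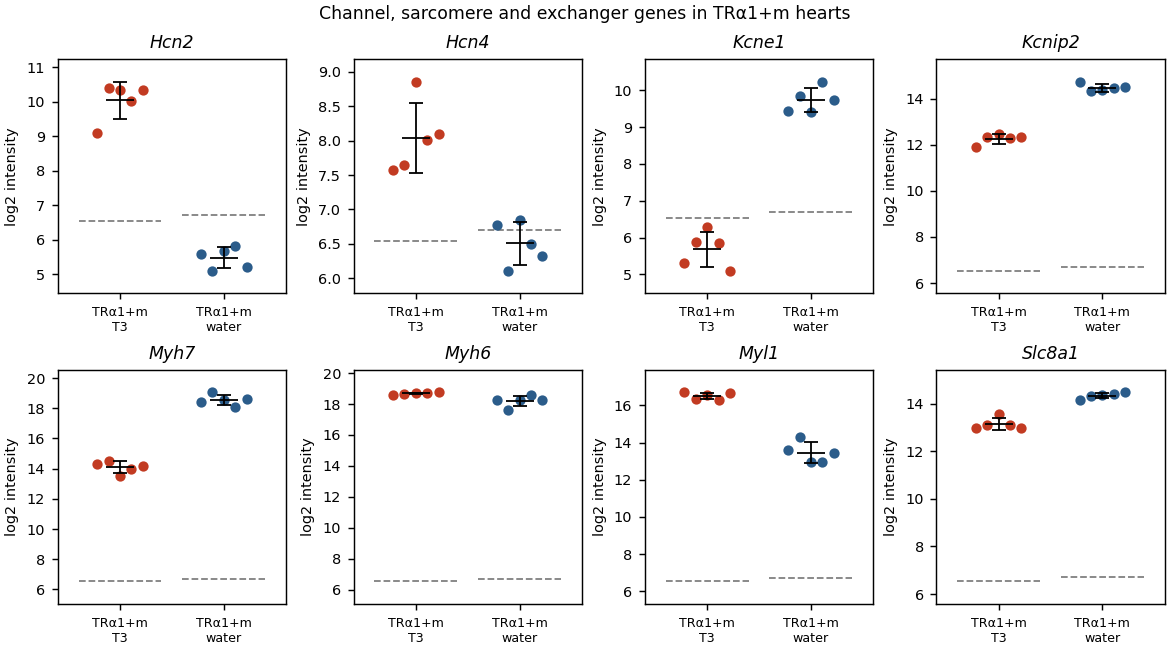
Log2 intensity of Hcn2, Hcn4, Kcne1, Kcnip2, Myh7, Myh6, Myl1 and Slc8a1 on each TRα1+m array, T3 left and water right, with 1 point per array and the group mean and SD as line and bar. In all 8 panels the T3 points lie wholly above (Hcn2, Hcn4, Myh6, Myl1) or wholly below (Kcne1, Kcnip2, Myh7, Slc8a1) the water points.

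Genes of the conduction system changed in both directions. Of 20 pacemaker and conduction genes 4 rose (Hcn2, Cntn2, Hcn4 and Bves) and 4 fell (Irx3, Etv1, Tbx5 and Gja1), with a median of -0.19. Each count was 20% of the list, beside 8.24% called higher and 6.92% called lower of all probe sets. Cntn2, a cell adhesion protein of Purkinje fibres, measured 7.16, 7.75, 7.77, 7.02 and 6.81 on T3 arrays 1 to 5, against 5.58, 5.61, 5.90, 5.65 and 4.71 on water arrays 1 to 5. Water array 5 was the lowest of its group and no array overlapped. The rise of 1.81 ± 0.21, adjusted p = 8.5e-07, started from below background and was at least 1.51-fold.

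Potassium channel subunits fell more often than they rose, 8 against 2 of 34, with a median of -0.16 that moved to 0.01 on negative-control centring. The shares were 23.5% lower and 5.88% higher, beside 6.92% and 8.24% of all probe sets. Kcne1, the accessory subunit of the slow delayed rectifier, measured 5.31, 5.87, 6.28, 5.85 and 5.10 on T3 arrays 1 to 5, against 9.43, 9.85, 9.42, 10.23 and 9.74 on water arrays 1 to 5. It dropped to background on every T3 array, a fall of at least 9.16-fold (fitted -4.05 ± 0.28, adjusted p = 2.3e-10). Kcnip2, the subunit that sets the transient outward current, measured 11.89, 12.31, 12.45, 12.27 and 12.34 on T3 arrays 1 to 5, against 14.73, 14.32, 14.35, 14.45 and 14.48 on water arrays 1 to 5, with water array 1 the highest and no overlap. Kcnip2 fell by 2.21 ± 0.12 (adjusted p = 1e-11), 4.64-fold lower. Abcc9, a subunit of the ATP-sensitive channel, fell by 0.89 ± 0.13 (adjusted p = 2e-05), and Kcna4, Kcnq1, Kcnj2, Kcnj5 and Kcnj11 were the other members that fell, while Kcna1 and Kcnj8 rose, of which 1 was called without T3 array 5.

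Calcium handling was split as well, with 4 rises and 3 falls among 25 genes and a median of 0.05, and 8 rises with negative-control centring. The main fit called 16% higher and 12% lower, beside 8.24% and 6.92% of all probe sets. Slc8a1, the sodium-calcium exchanger, measured 12.97, 13.09, 13.58, 13.11 and 12.99 on T3 arrays 1 to 5, against 14.17, 14.32, 14.35, 14.39 and 14.48 on water arrays 1 to 5. T3 array 3 was the highest of its group, the groups did not overlap, and Slc8a1 fell by 1.20 ± 0.13 (adjusted p = 4e-07). Cacna1c, the pore of the L-type calcium channel, fell by 0.89 ± 0.11 (adjusted p = 1.1e-06), whereas Cacna2d1, its auxiliary α2δ subunit, rose by 0.99 ± 0.12 (adjusted p = 2.1e-06). Casq1, the skeletal muscle form of the calcium store protein and chosen after its values were seen, rose by 2.05 ± 0.31 (adjusted p = 4.1e-05).

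Receptors and cyclic AMP signalling gave 8 rises and 8 falls among 35 genes. Rgs7, a brake on G-protein signalling, rose at least 6.01-fold (3.68 ± 0.26, adjusted p = 3.3e-10). Rgs2, another G-protein brake, chosen after its values were seen, fell by 2.21 ± 0.34 (adjusted p = 5e-05). The phosphodiesterases Pde1c and Pde3a, which break down cyclic nucleotides, fell by 2.01 ± 0.17 and 1.42 ± 0.13, and all their T3 arrays were below all water arrays. Adrb1 had no named probe set and was not analysed here.

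In the sarcomere list 7 of 42 genes rose (16.7%) and 8 fell (19.0%), beside 8.24% and 6.92% of all probe sets. Negative-control centring gave 13 rises and 5 falls, and the fit without water arrays 2 and 4 gave 5 falls. Myl1, a fast skeletal myosin light chain, measured 16.71, 16.33, 16.56, 16.30 and 16.65 on T3 arrays 1 to 5, against 13.59, 14.30, 12.95, 12.95 and 13.47 on water arrays 1 to 5. Water array 2 was the highest control, still below every T3 array, and Myl1 rose by 3.06 ± 0.19 (adjusted p = 4.2e-11), 8.33-fold. Myom2, a protein of the M-band, measured 13.96, 14.86, 14.81, 14.60 and 14.50 on T3 arrays 1 to 5, against 16.47, 17.14, 16.33, 16.38 and 16.54 on water arrays 1 to 5, without overlap and with water array 2 the highest. It fell by 2.03 ± 0.19 (adjusted p = 5.1e-08). Tnni1, the slow skeletal troponin I of fetal heart, was at background on all T3 arrays and on water arrays 1, 2 and 3, and fell at least 1.16-fold (fitted -2.32 ± 0.20, adjusted p = 1.6e-08). Acta1, skeletal α-actin, measured 18.24, 14.69, 14.92, 14.22 and 14.61 on T3 arrays 1 to 5, against 12.13, 16.78, 12.25, 12.13 and 12.47 on water arrays 1 to 5. T3 array 1 and water array 2 stood far above their groups, and the difference of 2.18 ± 0.75, adjusted p = 0.052, was not called, though without water array 2 it was 3.09 (adjusted p = 0.00047). It was called in 6 other alternatives, among them negative-control centring (2.35, adjusted p = 0.029).

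Stress genes depended on that array too. Of 19 genes 2 rose (10.5%) and 3 fell (15.8%), beside 8.24% and 6.92% of all probe sets, but 9 were called higher without water array 2. Nppb, the B-type natriuretic peptide, chosen like Acta1 after its values were seen, measured 15.73, 14.79, 15.04, 14.14 and 14.47 on T3 arrays 1 to 5, against 11.68, 14.53, 12.75, 11.20 and 12.85 on water arrays 1 to 5. Water array 2 overlapped the T3 group while the other water arrays were below it, and Nppb rose by 2.23 ± 0.42 (adjusted p = 0.00048). Timp1, an inhibitor of matrix proteases, rose at least 2.35-fold (2.27 ± 0.33, adjusted p = 2.3e-05).

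Interferon-induced genes had the highest share of called rises among the 47 lists examined, which were chosen with earlier results of these data known. These genes are switched on when interferons bind their receptors and restrict viral replication or present antigen. Of 40 measured members 37 rose and none fell, beside 8.24% and 6.92% of all probe sets, and the median was 1.54 beside -0.0185. For 35 of the 40 the groups did not overlap, beside 13.1% of all probe sets. The list averaged 9.64 to 9.94 on T3 and 7.79 to 8.25 on water. The 3 members not called had values of 0.90 (Igtp), 0.69 (Iigp1) and 0.52 (Ifi27). Promoters of 4 members with large rises are printed from RefSeq (GRCm38.p6), 250 bases before to 50 after the start site and 5′ to 3′ on the gene's strand, with matches to GAAANNGAAA, the core that interferon-activated factors bind, in capitals: Rsad2 (chr12:26456403-26456702, - strand, first match at -120), Ifit3 (chr19:34583279-34583578, + strand, -156 and -122), Gbp3 (chr3:142559794-142560093, + strand, -45 and -39) and Bst2 (chr8:71537423-71537722, - strand, -130 and -124).
Rsad2: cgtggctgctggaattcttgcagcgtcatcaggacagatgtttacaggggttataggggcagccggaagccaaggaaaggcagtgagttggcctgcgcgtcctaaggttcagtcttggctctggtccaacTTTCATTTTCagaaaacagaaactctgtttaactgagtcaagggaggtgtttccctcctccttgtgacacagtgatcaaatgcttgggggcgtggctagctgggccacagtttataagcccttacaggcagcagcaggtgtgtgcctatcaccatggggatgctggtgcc
Ifit3: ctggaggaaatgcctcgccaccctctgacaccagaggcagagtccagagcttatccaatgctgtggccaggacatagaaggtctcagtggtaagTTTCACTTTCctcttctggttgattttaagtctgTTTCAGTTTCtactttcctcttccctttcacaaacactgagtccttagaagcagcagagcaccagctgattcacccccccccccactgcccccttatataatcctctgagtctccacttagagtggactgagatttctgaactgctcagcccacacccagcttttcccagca
Gbp3: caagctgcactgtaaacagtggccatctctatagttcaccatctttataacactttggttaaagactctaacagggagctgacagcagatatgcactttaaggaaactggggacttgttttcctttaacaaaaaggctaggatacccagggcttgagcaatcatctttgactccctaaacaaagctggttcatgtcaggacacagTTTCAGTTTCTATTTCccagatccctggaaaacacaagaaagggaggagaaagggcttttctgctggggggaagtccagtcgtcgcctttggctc
Bst2: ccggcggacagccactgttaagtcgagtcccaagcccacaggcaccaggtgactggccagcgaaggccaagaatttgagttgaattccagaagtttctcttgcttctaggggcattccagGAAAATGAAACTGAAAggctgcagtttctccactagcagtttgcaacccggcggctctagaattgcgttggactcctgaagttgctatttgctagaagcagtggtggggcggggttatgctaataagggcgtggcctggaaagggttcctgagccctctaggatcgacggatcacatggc
Only promoters holding a match could be printed. Matches were searched on both strands. Those of Bst2 read on the printed strand and those of the other genes on the opposite one, and the pairs in Gbp3 and Bst2 overlap. A match was held by 17 of the 28 members with a RefSeq promoter (60.7%), against 579 of 14890 measured genes (3.89%), which describes the sequences and not the binding of a factor.

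Irf7, the transcription factor that amplifies interferon production, measured 10.36, 10.54, 11.16, 10.59 and 11.06 on T3 arrays 1 to 5, against 5.88, 6.79, 5.67, 5.18 and 6.30 on water arrays 1 to 5. Its water arrays were at background apart from array 2, which lay just above it, and all T3 arrays were above them, a rise of at least 16.3-fold (fitted 4.78 ± 0.37, adjusted p = 1.5e-09). Rsad2, the antiviral enzyme viperin, measured 11.18, 10.69, 11.14, 11.12 and 10.92 on T3 arrays 1 to 5, against 7.12, 8.33, 7.27, 7.44 and 7.30 on water arrays 1 to 5. Water array 2 was the highest control, the groups were apart, and Rsad2 rose by 3.52 ± 0.21 (adjusted p = 3.7e-11), 11.5-fold. Ifit3, a cytosolic RNA-response protein, measured 12.61, 12.49, 12.76, 12.57 and 12.81 on T3 arrays 1 to 5, against 9.50, 9.91, 9.89, 9.37 and 9.74 on water arrays 1 to 5, with a narrow spread in both groups, and rose by 2.97 ± 0.18 (adjusted p = 4.2e-11). Gbp3, a guanylate-binding GTPase, measured 12.19, 12.38, 12.19, 12.63 and 12.76 on T3 arrays 1 to 5, against 8.47, 9.30, 9.83, 9.02 and 9.76 on water arrays 1 to 5, again without overlap, and rose by 3.15 ± 0.21 (adjusted p = 2.1e-10). Bst2, the protein tetherin that holds budding viruses at the membrane, measured 11.46, 10.74, 11.29, 11.56 and 11.84 on T3 arrays 1 to 5, against 8.61, 9.30, 8.97, 8.14 and 8.54 on water arrays 1 to 5. All T3 arrays were higher, and Bst2 rose by 2.67 ± 0.24 (adjusted p = 2.1e-08). Ifit3b, a near-identical neighbour of Ifit3 whose probes may share signal with it, and Ifi213, an interferon-inducible DNA-binding family member, rose by 3.31 ± 0.24 and 2.96 ± 0.25.

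**Figure D3:**
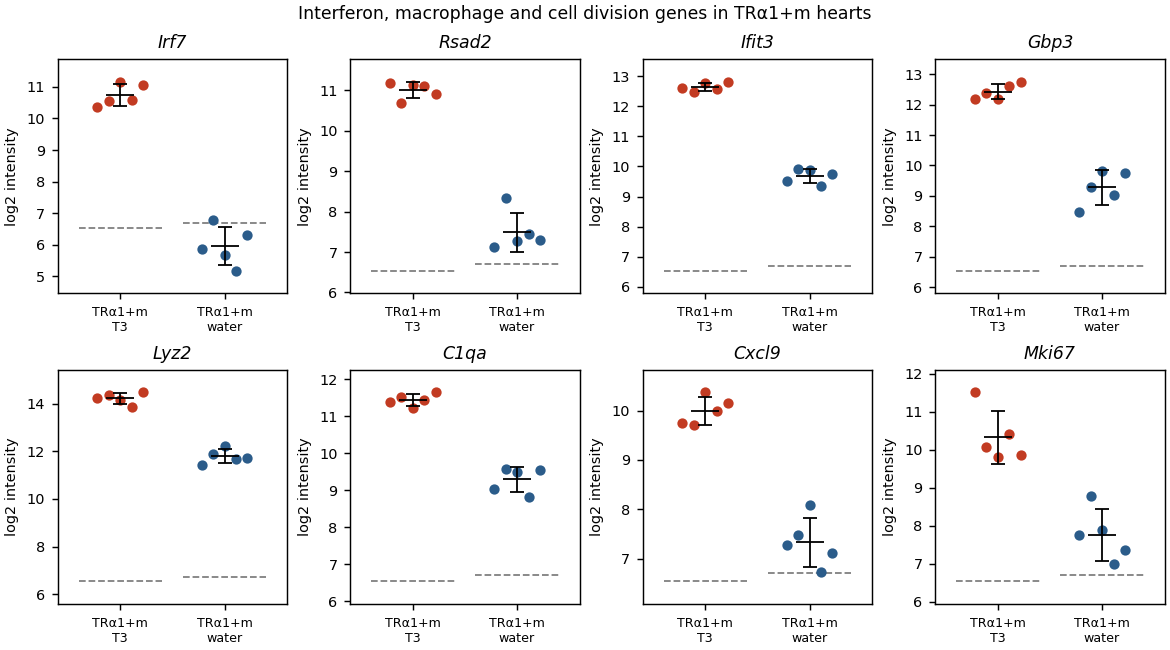
Log2 intensity of Irf7, Rsad2, Ifit3, Gbp3, Lyz2, C1qa, Cxcl9 and Mki67 on each TRα1+m array, T3 left and water right, with 1 point per array and the group mean and SD as line and bar. In all 8 panels every T3 point lies above every water point.

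Genes upstream of these were also measured. Of 27 interferons, receptors and sensors 12 rose and 1 fell, with a median of 0.33. Tlr7, the endosomal sensor of single-stranded RNA, measured 11.28, 10.45, 11.02, 11.07 and 10.96 on T3 arrays 1 to 5, against 8.46, 8.57, 8.13, 7.87 and 7.76 on water arrays 1 to 5, with no overlap, and rose by 2.80 ± 0.19 (adjusted p = 2.2e-10). Tlr3, the sensor of double-stranded RNA, rose by 0.77 ± 0.11 (adjusted p = 1e-05). Irf3, a factor that induces type I interferon and was chosen after its values were seen, fell by 0.63 ± 0.14 (adjusted p = 0.0026). The interferon genes Ifnb1, Ifng and Ifna2 were below the negative-control level in both groups, so no change of theirs was read here.

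Macrophage genes rose beside the interferon genes. Rises were called for 24 of 28 macrophage and MHC class II genes, and no falls, with a median of 1.34, 21 of them being above background on water, and the list averaged 9.75 to 9.90 on T3 and 8.30 to 8.76 on water. The part of macrophage number in the interferon rise was not tested. Lyz2, lysozyme of myeloid cells, measured 14.25, 14.38, 14.15, 13.86 and 14.48 on T3 arrays 1 to 5, against 11.41, 11.91, 12.21, 11.69 and 11.73 on water arrays 1 to 5. All T3 arrays were higher by more than 1 log2 unit, and Lyz2 rose by 2.44 ± 0.18 (adjusted p = 9e-10). C1qa, a chain of complement C1q that tissue macrophages make, measured 11.38, 11.52, 11.24, 11.44 and 11.65 on T3 arrays 1 to 5, against 9.04, 9.58, 9.50, 8.83 and 9.54 on water arrays 1 to 5, without overlap, and rose by 2.14 ± 0.15 (adjusted p = 2.3e-10), while its partner C1qb rose by 2.35 ± 0.17 (adjusted p = 5.4e-10). The receptors Folr2 and Cd163 of resident macrophages, both chosen after their values were seen, rose by 1.96 ± 0.20 and 1.60 ± 0.27. Lyve1, found on resident macrophages and lymphatic endothelium, had a difference of 0.22 ± 0.20, adjusted p = 0.57.

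Recruitment genes moved the same way, with 11 rises and no fall among 23 chemokines and monocyte genes (median 0.73) and 3 rises and no fall among 11 complement genes. The rises were 47.8% and 27.3% of these lists, beside 8.24% of all probe sets. Cxcl9, an interferon-induced T-cell attractant, measured 9.74, 9.72, 10.37, 9.99 and 10.15 on T3 arrays 1 to 5, against 7.27, 7.47, 8.08, 6.72 and 7.11 on water arrays 1 to 5. The groups did not overlap, and Cxcl9 rose by 2.66 ± 0.25 (adjusted p = 5.2e-08). C3ar1, the receptor for the C3a fragment, measured 11.07, 10.81, 11.05, 10.96 and 10.79 on T3 arrays 1 to 5, against 7.95, 8.27, 8.55, 8.27 and 7.76 on water arrays 1 to 5, also without overlap, and rose by 2.78 ± 0.15 (adjusted p = 3.2e-12). Cxcl12, a homing signal made by stromal cells, rose by 1.41 ± 0.12 (adjusted p = 1.6e-08). Ly6c2, a surface protein of inflammatory monocytes, rose by 1.48 ± 0.16 (adjusted p = 3.1e-07), whereas Ccl7 had a difference of 0.69 ± 0.24, adjusted p = 0.059. Other leukocytes gave little signal: 2 of 15 lymphocyte markers were above background on water, 1 rose (Gzma, at least 1.12-fold), and of 13 neutrophil and mast cell markers none rose and 1 fell, a fall not called when any single one of T3 arrays 2, 4 and 5 or water arrays 1, 3 and 4 was left out. Without T3 array 3, T3 array 5 or water array 3, 2 lymphocyte markers rose. These lists averaged 5.67 to 5.98 on T3 and 5.45 to 5.81 on water for lymphocytes, and 6.20 to 6.73 on T3 and 6.32 to 6.39 on water for neutrophils and mast cells.

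Extracellular matrix genes rose in 28 of 45 cases and fell in none (1 fell without water array 1, after quantile normalization or in a fit to the 10 arrays alone), with a median of 0.81. Sparc, a collagen-binding matrix protein, measured 17.88, 17.05, 17.39, 17.52 and 17.60 on T3 arrays 1 to 5, against 15.62, 15.84, 15.34, 15.72 and 15.56 on water arrays 1 to 5. T3 array 1 was the highest, the groups were apart, and Sparc rose by 1.87 ± 0.19 (adjusted p = 9.3e-08). Loxl1, an enzyme that cross-links elastin, rose by 1.76 ± 0.17 (adjusted p = 5.1e-08), and Serpinh1, a collagen chaperone, rose by 1.31 ± 0.13 (adjusted p = 1.1e-07). The collagen Col3a1 rose by 1.55 ± 0.22 (adjusted p = 1.6e-05). Of 14 fibroblast markers 8 rose and none fell (median 0.68), averaging 11.68 to 12.02 on T3 and 11.02 to 11.50 on water. Mfap5, a microfibril protein, rose by 1.71 ± 0.26 (adjusted p = 3.3e-05), but Dcn, the proteoglycan decorin, had a difference of 0.06 ± 0.10, adjusted p = 0.79.

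Of 23 endothelial markers 8 rose and 1 fell (median 0.44), and 17 rose with negative-control centring. They averaged 11.76 to 11.91 on T3 and 11.22 to 11.54 on water. Aplnr, the apelin receptor of sprouting vessels, measured 12.03, 11.77, 11.76, 11.99 and 11.76 on T3 arrays 1 to 5, against 9.31, 9.75, 9.46, 9.48 and 9.80 on water arrays 1 to 5. It was higher on every T3 array and rose by 2.30 ± 0.18 (adjusted p = 3.4e-09). Tie1, an endothelial receptor kinase, and Eng, a co-receptor of TGFβ ligands, rose by 1.12 ± 0.15 and 1.13 ± 0.13. Prox1, a regulator of lymphatic fate that cardiomyocytes also express, chosen after its values were seen, fell by 0.88 ± 0.16 (adjusted p = 0.00041). Of 15 smooth muscle and pericyte markers 4 rose (26.7%) and 1 fell (6.67%), beside 8.24% and 6.92% of all probe sets, with Vtn, vitronectin, at 0.82 ± 0.13, adjusted p = 7.1e-05.

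Genes of cell division rose in 23 of 38 cases and fell in none, with a median of 0.85, though 10 of the 38 were above background on water. The list averaged 7.05 to 8.04 on T3 and 6.28 to 7.03 on water. Mki67, the Ki-67 protein that coats mitotic chromosomes, measured 11.52, 10.06, 9.80, 10.41 and 9.85 on T3 arrays 1 to 5, against 7.75, 8.79, 7.88, 7.0 and 7.36 on water arrays 1 to 5. T3 array 1 was the highest and water array 2 the highest control, still below all T3 arrays. Mki67 rose by 2.57 ± 0.36 (adjusted p = 1.3e-05), 5.95-fold. Kif23, a kinesin of cytokinesis, and Cenpa, the histone of centromeres, rose by 1.56 ± 0.23 and 0.90 ± 0.11. Pcna, the sliding clamp of DNA replication, was not called (0.22 ± 0.14, adjusted p = 0.37). The Mki67 promoter is shown for TTTGAA, the cell cycle element found in genes of mitosis (RefSeq, GRCm38.p6, chr7:135716330-135716629, - strand, 5′ to 3′, matches in capitals, both on the printed strand and not overlapping, at -116 and -98 from the start site).
Mki67: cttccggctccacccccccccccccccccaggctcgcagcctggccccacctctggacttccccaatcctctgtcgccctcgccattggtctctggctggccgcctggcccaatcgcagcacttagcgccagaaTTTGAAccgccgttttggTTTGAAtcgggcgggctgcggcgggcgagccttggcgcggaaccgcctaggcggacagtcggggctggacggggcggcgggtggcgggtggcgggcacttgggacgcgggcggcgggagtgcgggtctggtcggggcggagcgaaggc
On either strand the element was in 17 of 33 promoters of the list (51.5%) and in 2608 of 14890 measured genes (17.5%).

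Genes of fatty acid use fell more often than they rose. Of 37 genes of fatty acid uptake and oxidation 13 fell and 1 rose, with a median of -0.24. On negative-control centring 9 fell and 2 rose, with a median of -0.08. Cpt1b, the carnitine transferase that admits fatty acids to mitochondria, measured 15.40, 15.50, 15.56, 15.65 and 15.50 on T3 arrays 1 to 5, against 16.27, 16.22, 16.13, 16.16 and 16.09 on water arrays 1 to 5. The groups did not overlap and Cpt1b fell by 0.65 ± 0.10 (adjusted p = 3.3e-05). Slc27a1, a fatty acid transporter, and Lpl, lipoprotein lipase, fell by 1.43 ± 0.21 and 1.00 ± 0.10, and the single rise was Cpt2, chosen after its values were seen (0.56 ± 0.15, adjusted p = 0.0092). Of 20 metabolic regulators 8 fell and 1 rose. Ppara, Klf15 and Esrrg, transcription factors of fat oxidation chosen after their values were seen, fell by 1.02 ± 0.20, 1.03 ± 0.19 and 0.81 ± 0.15. Lpin1, a phosphatidate phosphatase and coactivator, rose by 0.78 ± 0.10 (adjusted p = 6.6e-06).

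Idh2, the mitochondrial NADP-dependent isocitrate dehydrogenase, measured 16.21, 16.42, 16.44, 16.52 and 16.40 on T3 arrays 1 to 5, against 17.97, 18.01, 17.99, 17.89 and 17.93 on water arrays 1 to 5. Both groups had a narrow spread and lay more than 1 log2 unit apart, and Idh2 fell by 1.56 ± 0.10 (adjusted p = 4.9e-11), one of 4 falls beside 1 rise among 20 genes of the citric acid cycle (2 falls without T3 array 3, and 2 falls and 4 rises with negative-control centring). The rise was Idh3a (0.49 ± 0.10, adjusted p = 0.0011), a subunit of the NAD-dependent enzyme. Genes of glucose use were split, 7 up (22.6%) and 8 down (25.8%) of 31, beside 8.24% and 6.92% of all probe sets, with 4 down on negative-control centring. Pdk1, a kinase that holds pyruvate dehydrogenase inactive, fell by 1.41 ± 0.12 (adjusted p = 5.3e-09), and Ldhb, the heart form of lactate dehydrogenase, fell by 0.78 ± 0.10 (adjusted p = 3.8e-06). Pgk1, a kinase of glycolysis, rose by 0.98 ± 0.11 (adjusted p = 6.1e-07). Of 59 respiratory chain subunits 5 rose (8.47%) and 2 fell (3.39%), near or below the 8.24% and 6.92% of all probe sets. There were 10 rises without T3 array 1 and 15 on negative-control centring. Rises numbered 2 or 3 when any single one of T3 arrays 2, 4 and 5 and water arrays 2 to 5 was left out. Cox7a1, a heart and muscle subunit of cytochrome oxidase, rose by 0.89 ± 0.14 (adjusted p = 5e-05). Cox6a2, another such subunit, fell by 0.43 ± 0.10 (adjusted p = 0.0039). Among 13 genes of uncoupling and heat production 5 rose and none fell, among them the adenine nucleotide carrier Slc25a5 (0.79 ± 0.11) and the mitochondrial creatine kinase Ckmt2 (0.74 ± 0.10).

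Lipid synthesis had 6 rises (26.1%) and 1 fall (4.35%) among 23 genes, beside 8.24% and 6.92% of all probe sets. Elovl5, an elongase of polyunsaturated fatty acids, rose by 1.24 ± 0.14 (adjusted p = 3.7e-07), and Dgat2, which completes triglyceride synthesis, rose by 1.01 ± 0.16 (adjusted p = 4.5e-05). Fdft1, squalene synthase, fell by 1.38 ± 0.18 (adjusted p = 5.9e-06). Tfrc, the transferrin receptor through which cells take up iron, measured 13.89, 13.47, 14.52, 13.78 and 13.61 on T3 arrays 1 to 5, against 10.44, 11.13, 11.46, 11.76 and 11.44 on water arrays 1 to 5. Water array 1 was the lowest, all T3 arrays were above all water arrays, and Tfrc rose by 2.61 ± 0.28 (adjusted p = 2.7e-07), 6.1-fold. It was one of 5 rises and no fall among 18 iron and heme genes (11 rises on negative-control centring), with Alas1, the entry enzyme of heme synthesis (1.04 ± 0.14, adjusted p = 8.3e-06). Antioxidant enzymes were split, 6 up and 5 down of 31 (3 down without T3 array 1 or on negative-control centring), with Sod3, the extracellular superoxide dismutase, at 1.82 ± 0.18, adjusted p = 1.1e-07, and Nqo1, a quinone reductase, at -2.26 ± 0.18, adjusted p = 3.7e-09.

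Of 20 circadian clock genes 6 fell and none rose, with a median of -0.32. Dbp, a clock output factor, measured 12.89, 12.34, 12.93, 12.93 and 12.75 on T3 arrays 1 to 5, against 15.06, 15.34, 15.01, 14.29 and 14.89 on water arrays 1 to 5. Every T3 array was below every water array, and Dbp fell by 2.15 ± 0.44 (adjusted p = 0.0011). Nr1d1, the repressor REV-ERBα, and Cry2, a cryptochrome, fell by 1.75 ± 0.32 and 1.34 ± 0.19, and no source used here gives the hour of tissue collection. Immediate early genes gave 6 falls and 2 rises of 24. Nr4a1, an orphan nuclear receptor, measured 6.95, 6.24, 6.68, 6.40 and 6.78 on T3 arrays 1 to 5, against 7.83, 9.95, 8.65, 9.32 and 8.84 on water arrays 1 to 5. Water array 2 was the highest, the groups did not overlap, and Nr4a1 fell by 2.31 ± 0.27 (adjusted p = 1e-06). Its T3 mean of 6.61 was just above the negative-control level of 6.54, with T3 arrays 2 and 4 below that level. Dusp1, a phosphatase of MAP kinases, fell by 0.92 ± 0.17 (adjusted p = 0.00032). Myc, a growth transcription factor, rose by 1.34 ± 0.26 (adjusted p = 0.00056). Without water arrays 2 and 4, 2 of the 24 genes were called lower.

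Of 30 cytosolic ribosomal proteins 16 fell and none rose, with a median of -0.39, but 4 fell with negative-control centring and 8 without water arrays 2 and 4. Rps25 and Rpl5 of the small and the large subunit fell by 0.66 ± 0.11 and 0.63 ± 0.10. Insulin-like growth factor and insulin signalling had 5 rises and 5 falls of 21. Igfbp7, a binding protein of blood vessels, rose by 1.75 ± 0.17 (adjusted p = 6.1e-08), and Irs1, the insulin receptor substrate, rose by 1.66 ± 0.17 (adjusted p = 9e-08). Igfbp3, the main carrier of circulating growth factor, fell by 1.75 ± 0.17 (adjusted p = 7.7e-08).

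**Figure D4:**
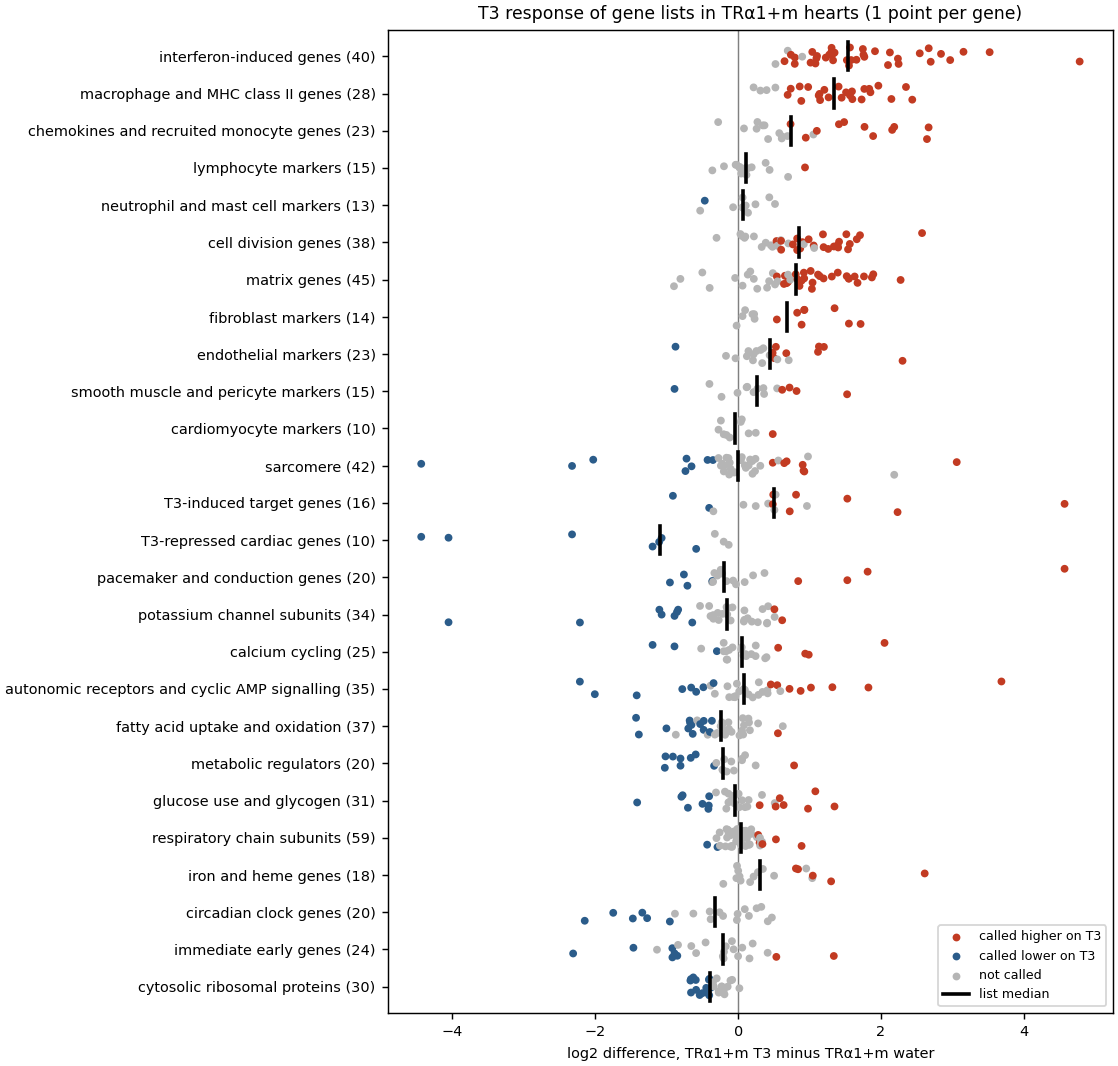
Log2 difference, T3 minus water, of every measured gene of 26 lists in TRα1+m hearts, 1 row per list with its number of genes, called rises in red, called falls in blue, uncalled genes in grey and a bar at the list median. The interferon list (median 1.54) and the macrophage list (1.34) lie to the right of 0, and the T3-repressed list (-1.09) lies to the left.

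Cbr2, a carbonyl reductase, had the largest rise of a named gene above background in both groups. It measured 13.54, 13.02, 12.99, 12.98 and 13.19 on T3 arrays 1 to 5, against 9.60, 8.46, 9.53, 9.78 and 9.76 on water arrays 1 to 5, with water array 2 the lowest, and rose by 3.72 ± 0.22 (adjusted p = 2.3e-11), 13.2-fold. Apobec1, a cytidine deaminase that edits RNA, and Egln3, a prolyl hydroxylase that senses oxygen, rose by 3.06 ± 0.14 and 2.70 ± 0.17. Lrat, which esterifies retinol, rose at least 9.97-fold from below background, and Tlcd2, a membrane lipid regulator, at least 5.34-fold. Scgb1c1, a secretoglobin, measured 7.74, 8.11, 7.99, 7.48 and 7.68 on T3 arrays 1 to 5, against 12.02, 12.31, 12.44, 11.71 and 12.23 on water arrays 1 to 5. It had narrow groups far apart and fell by 4.34 ± 0.19, 20.2-fold. The other large falls above background were those of Cep128, a centriole protein (-4.16 ± 0.23), Lgals4, a galectin (-3.41 ± 0.33), Efnb3, an ephrin (-3.01 ± 0.20), Slc16a7, a monocarboxylate carrier (-2.86 ± 0.19), Penk, the enkephalin precursor (-2.82 ± 0.27), Scd4, a heart-enriched fatty acid desaturase (-2.82 ± 0.30), Afmid, a kynurenine pathway enzyme (-2.78 ± 0.17), Lrrc4b, a synaptic adhesion protein (-2.65 ± 0.33), Cpxm2, a carboxypeptidase-like protein (-2.65 ± 0.31), and Usp11, a deubiquitinase (-2.40 ± 0.15). Among falls to background, Inmt, a methyltransferase, and Lad1, an anchoring filament protein, dropped at least 3.11-fold and 2.5-fold, and the bound for Tmem232 was 1.19-fold.

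Whether TRα1+m hearts answered T3 as wild-type hearts did was tested as an interaction, the T3 difference in TRα1+m minus that in wild type. It was called for 58 of 21092 probe sets (0.275%), 39 positive (0.185%) and 19 negative (0.0901%), with 1594 at an unadjusted p below 0.05. For 34 of the 58 the T3 difference was called in both genotypes with the same sign, being larger in TRα1+m for 32 and in wild type for 2. It was called in TRα1+m and not in wild type for 18, and in wild type and not in TRα1+m for 6. With negative-control centring 87 were called, 72 of them positive, and without TRα1+m T3 array 1 the positive calls numbered 64. Serum T3 of these mice was not analysed here, so the hormone level and the genotype of treated mice cannot be told apart. The arrays of the genotypes also differed in scale, with a median gene probe set of 7.05 on T3 and 7.03 on water in TRα1+m against 6.56 on T3 and 6.53 on water in wild type, so levels are compared within a genotype only.

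Myh7 differed most among genes lowered by T3. Its difference was -4.43 in TRα1+m and -1.91 in wild type, where it measured 14.20, 14.49, 13.70, 14.31, 14.38 and 12.83 on wild-type T3 arrays 1 to 6, against 16.45, 15.45, 15.76, 15.32, 16.22 and 16.16 on wild-type water arrays 1 to 6, and the interaction was -2.53 ± 0.37 (adjusted p = 0.0015). Tnni1, which fell in TRα1+m, measured 4.66, 4.23, 4.47, 4.02, 4.25 and 4.32 on wild-type T3 arrays 1 to 6, against 4.41, 4.27, 4.20, 4.32, 4.59 and 3.93 on wild-type water arrays 1 to 6, at background in all 12 wild-type hearts (interaction -2.36 ± 0.28 (adjusted p = 0.00018)). The fall of Kcne1 was also larger in TRα1+m, -4.05 beside -1.72 in wild type, with T3 values at background in both (interaction -2.33 ± 0.38 (adjusted p = 0.0035)). Myom2 fell less in TRα1+m, by 2.03, than in wild type, by 3.78, where it measured 12.39, 12.59, 12.27, 12.31, 11.68 and 11.58 on wild-type T3 arrays 1 to 6, against 16.00, 15.81, 15.99, 15.96, 15.87 and 15.90 on wild-type water arrays 1 to 6 (interaction 1.76 ± 0.26 (adjusted p = 0.0015)). Nr4a1 measured 5.99, 6.52, 6.47, 6.02, 6.28 and 6.29 on wild-type T3 arrays 1 to 6, against 6.80, 6.52, 6.02, 7.17, 6.76 and 6.29 on wild-type water arrays 1 to 6, with overlap, and its interaction was -1.98 ± 0.37 (adjusted p = 0.013). The wild-type T3 mean of 6.26 was close to the negative-control level of 6.16 on those arrays.

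Among genes raised by T3, Hcn2 rose by 4.57 in TRα1+m and by 2.99 in wild type (interaction 1.58 ± 0.32 (adjusted p = 0.026)). Irf7 rose by 4.78 and 2.41 in TRα1+m and wild type (interaction 2.37 ± 0.50 (adjusted p = 0.034)). Both fits started from values at background in TRα1+m water hearts, and neither call was firm: Hcn2 passed in 25 of 36 alternative settings (adjusted p up to 0.072, not called when any single one of TRα1+m T3 arrays 2 to 5, TRα1+m water array 5, wild-type T3 arrays 4 and 6 and wild-type water arrays 2 and 5 was left out) and Irf7 in 19 of 36 (up to 0.091). The Irf7 call was lost when any single one of TRα1+m T3 arrays 2 to 5, TRα1+m water arrays 1, 3 and 4, wild-type T3 arrays 1, 3, 4 and 6 and wild-type water arrays 1, 2, 4 and 5 was left out. Of the 40 interferon-induced genes 5 had a positive interaction called, among them Rsad2 (2.07 ± 0.29 (adjusted p = 0.00071)) and Gbp3 (1.82 ± 0.29 (adjusted p = 0.0029)), and the list median was 1.54 in TRα1+m and 0.96 in wild type. Of the 28 macrophage and MHC class II genes 2 were called, C1qa (in 24 of 36 alternative settings) and Folr2 (in 34), and the list median was 1.34 in TRα1+m and 0.78 in wild type. Of all probe sets 0.185% had a positive interaction called. Cbr2 rose by 3.72 in TRα1+m and by 1.25 in wild type, where it measured 11.75, 12.00, 12.41, 12.16, 12.08 and 12.17 on wild-type T3 arrays 1 to 6, against 10.87, 11.26, 10.54, 10.96, 11.19 and 10.28 on wild-type water arrays 1 to 6 (interaction 2.47 ± 0.29 (adjusted p = 0.00018)). Aqp1, a water channel of endothelium, measured 13.82, 14.22, 14.44, 14.34 and 14.48 on T3 arrays 1 to 5, against 12.85, 12.46, 12.83, 12.59 and 12.76 on water arrays 1 to 5, without overlap, and 14.69, 14.94, 14.99, 14.68, 15.17 and 14.55 on wild-type T3 arrays 1 to 6, against 14.88, 15.02, 14.35, 14.93, 15.05 and 14.59 on wild-type water arrays 1 to 6, with overlap (interaction 1.53 ± 0.21 (adjusted p = 0.0007)). Cldn5, a tight junction protein of endothelium, differed by -0.04 ± 0.19 in TRα1+m and by 1.24 in wild type (interaction -1.28 ± 0.26 (adjusted p = 0.026), called in 27 of 36 settings with an adjusted p up to 0.12, that without TRα1+m water arrays 2 and 4, and not called when any single one of TRα1+m T3 arrays 2, 3 and 5, TRα1+m water arrays 1 and 4 and wild-type water arrays 1 and 5 was left out), and its TRα1+m value turned positive on negative-control centring (0.13). Lrat was below background on water in both genotypes, so its fitted rises of 4.53 in TRα1+m and 6.71 in wild type, and their interaction of -2.19 ± 0.38 (adjusted p = 0.0068), rest on water values below the negative-control level.

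**Figure D5:**
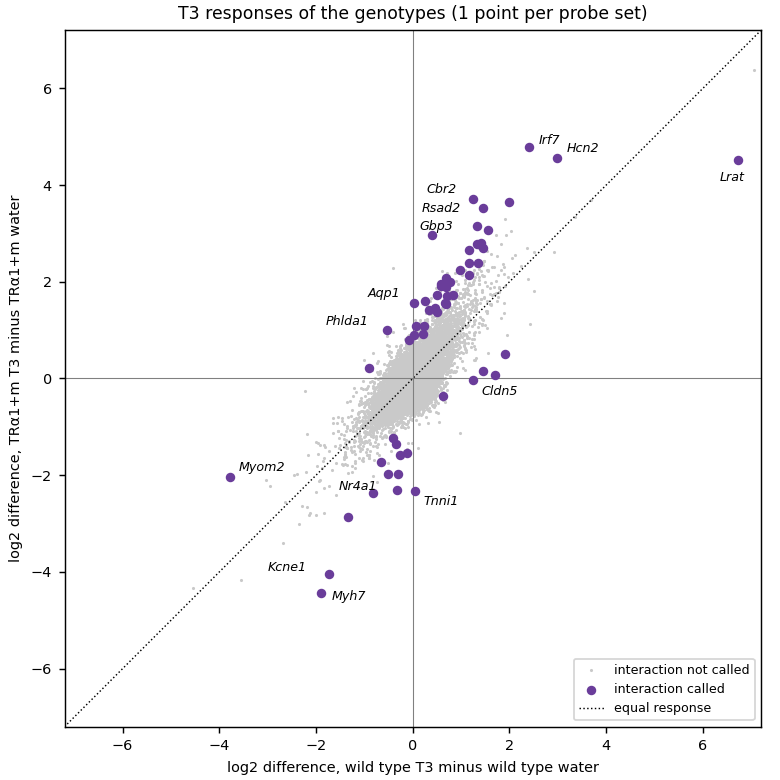
Log2 difference T3 minus water of each of 21092 probe sets in TRα1+m hearts (vertical) against wild-type hearts (horizontal), with the 58 probe sets whose interaction was called in purple and a dotted line at equal responses. Most called points lie farther from 0 on the vertical axis, among them Myh7 (-4.43 beside -1.91) and Cbr2 (3.72 beside 1.25), while Lrat and Myom2 lie nearer to 0 on it.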

How the data were processed

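Clariom S arrays of 22 hearts were used, with groups and replicate numbers from the sample titles. The authors made the deposited log2 intensities, 1 per probe set and array, in the Transcriptome Analysis Console 4.0.1. RMA is named in the submitters' notes, a method that subtracts background, scales the arrays to each other and combines the probes of a set. A joint normalization of all arrays is not stated in the sources used here, nor is a genome build. Of 28846 entries 22206 are gene probe sets. Genes were named through a platform table, 19572 probe sets naming 1 gene and 2634 none here. The series text counts as many mice as arrays, so each array was taken as 1 mouse, and their number limits the precision.

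A mean per group was fitted to the 22 arrays with limma 3.58.1 in R 4.3.3 (lmFit, eBayes, two-sided), and p-values were Benjamini-Hochberg adjusted over 21092 probe sets. Differences are given ± SE. In simulated data with 200 changed probe sets, the fit called 82.5% of log2 changes of 1 for T3 in TRα1+m and 52.5% for the interaction, and 10% and 0% of changes of 0.5. False calls made up 5.71% and 8.70% of the calls at 1, and 13.0% for T3 at 0.5. In the data 3198 probe sets were called for T3, and the adjusted cut-off loosens as more probe sets change. The simulated shares for T3 therefore do not measure recovery in the data.

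Named were the 12 largest called rises and falls above background, up to 5 bounds in each direction, up to 3 called and 2 uncalled members per list, the genes the study names and 6 interaction genes each way, predicted genes left out. Fewer appear in the text. Genes outside the rule, also those listed beside a small count, were chosen after their values were seen. Members and lists were chosen with earlier results of these data known. Where several probe sets name a gene, the brightest was used. Alternatives were other scales, filters, variances, adjustments, a replicate block, fits to 10 arrays and leaving arrays out, and the fit without TRα1+m water arrays 2 and 4 was chosen after seeing the data. Promoters came from RefSeq (GRCm38.p6) and were matched by Entrez identifier for 14890 of 18510 measured genes. A printed promoter was the first of its gene by position that held a match, so its match was fixed by the choice. Tables and figures were made with Python 3.11.15.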

Additional observations from a re-analysis of the deposited data

Results flagged for a closer look

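In 20 of 264 groups of 5 TRα1+m arrays tested for the named genes, 1 array stood apart from the rest of its group (gap to the nearest array against the range of the group, Dixon's value of 0.71 for 5 arrays). Chance gives about 1 in 20 for independent groups of genes chosen without their values. Some of these genes were chosen after their values were seen, and genes on 1 array may vary together. The count is therefore not a test against that rate. Water array 2 held 7 of the 20 flags, being high for Myom2 (17.14), Acta1 (16.78), Rsad2 (8.33) and Pcna (13.10) and low for Mhrt (11.87), Cbr2 (8.46) and Idh3a (16.73). T3 array 1 held 4, high for Acta1 (18.24) and low for Cox7a1 (16.32), Ckmt2 (15.94) and Cep128 (8.32). The other T3 arrays were array 2 for Thra (10.82, low), array 3 for Slc8a1 (13.58, high) and array 4 for Cldn5 (10.91, high) and Bmp10 (7.12, low). The other water arrays were array 1 for Tlr3 (10.12, low), array 3 for Usp11 (10.16, low), array 4 for Pde3a (14.06) and Vtn (12.92, both high) and array 5 for Cntn2 (4.71, low).

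The T3 response in TRα1+m minus that in wild type was called for 27 of the named genes (limma). Positive values were those of Cbr2 (2.47), Irf7 (2.37), Rsad2 (2.07), Gbp3 (1.82), Myom2 (1.76), Hcn2 (1.58), Phlda1, an apoptosis-related protein (1.53), Aqp1 (1.53), Bst2 (1.51), Apobec1 (1.51), C3ar1 (1.45), Folr2 (1.39), Tlr7 (1.38), Mhrt (1.35), Cxcl12 (1.08), C1qa (0.97) and Cenpa (0.87). Negative values were those of Myh7 (-2.53), Tnni1 (-2.36), Kcne1 (-2.33), Lrat (-2.19), Nr4a1 (-1.98), Tmem232 (-1.69), Slc16a7 (-1.51), Slc22a17, an organic cation carrier family member (-1.40), Cldn5 (-1.28) and Gprasp2, a receptor-sorting protein (-1.01). In Myom2 the wild-type fall was the larger. Water values of Lrat, Hcn2 and Irf7 in TRα1+m, of Lrat, Tnni1 and Tmem232 in wild type, and T3 values of Kcne1, Tnni1 and Tmem232 in both genotypes were not above background. T3 values of Nr4a1 averaged just above background in both genotypes.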

How the results depend on the processing

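The T3 response was called for 2769 to 3120 probe sets with single TRα1+m arrays left out (1508 to 1771 higher, 1248 to 1349 lower). A minimum log2 difference of 1 left 776 (551 higher, 225 lower). Negative-control centring gave 3185 higher and 774 lower. The interaction was called for 88 probe sets after quantile normalization (62 higher), 88 where the highest group was above the negative controls (65 higher), 99 with trended variance (75 higher) and 100 with array weights (72 higher). Called higher were 72 with negative-control centring, 63 with a mean above 6 and 26 to 64 with single arrays left out, the highest without TRα1+m T3 replicate 1. The cause was not tested. Thrb turned to 0.034 on negative-control centring and ranged from -0.24 to 0.026 with single arrays left out. Cldn5 turned to 0.13 on that centring and to 0.12 without water arrays 2 and 4, and ranged from -0.19 to 0.036. Ucp1 ranged from -0.40 to 1.52. Cox6a2 was not called on negative-control centring (-0.27), and Ryr2 (0.41), Acta1 (2.35), Igtp, Iigp1 and Ccl7 were then called higher. For 20 of the 27 interaction genes the call held in all settings checked, 36 for each gene but 35 for Tnni1 and Tmem232. The minimum log2 difference of 1 was not among these settings, and of the 20 genes Cenpa (0.87) lies below it. Folr2, C1qa, Bst2 and Gprasp2 held the call in 34, 24, 16 and 13 of 36. Same-numbered TRα1+m arrays did not deviate together (correlations -0.12 to 0.13). The replicate block gave 3295 and 65 calls, and 2320 in the 10 arrays alone against 2964 without it, and with it Acta1 and Iigp1 were called. Intensities at the negative-control level limit what changes could be seen, and a limit near 19.93 was not tested.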
